A study of Mus musculus with 6 samples.

Results

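The genes described here encode 9 AP-1 factors of the FOS, JUN and ATF families, which are Fos, Fosb, Fosl1, Fosl2, Jun, Junb, Jund, Batf3 and Atf3. They were chosen by gene symbol, and all 9 were found among the 15319 genes of the count table. RNA-Seq had been performed on tumor-infiltrating Tregs of WT mice (Foxp3Yfp-Cre) and of cKO mice (Xrcc6flox/floxFoxp3Yfp-Cre), in which the floxed gene for the DNA repair protein Ku70 is removed by a Cre recombinase expressed from the Foxp3 locus. Both groups carried the Cre and its YFP tag, were 8 to 10 weeks old when LLC cells, a lung carcinoma line from mice, were injected into the tail vein, and had their lung tumors taken at 21 days. There were 3 libraries in each group. Whether a library came from 1 mouse or from pooled mice, and the gate used to sort the tumor Tregs, were not given in the sources used here, so the p-values measure only the spread between these libraries.

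AP-1 is a family of dimeric transcription factors that grip DNA through a basic region and pair through a leucine zipper. FOS proteins cannot pair with each other and need a JUN partner, whereas JUN proteins also pair among themselves and with ATF and BATF factors. In T cells AP-1 is built after stimulation of the T cell receptor, when MAP kinases raise FOS and JUN transcription within minutes, and it binds beside NFAT or IRF4 at many cytokine and receptor genes. The same immediate-early genes are also known to respond to enzymatic digestion of tissue.

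The promoters of the 4 members that carried the main contrasts below, the stimulus-induced pair Fos and Fosb and the pair Jun and Junb, are shown first, as the 250 bases before the RefSeq start of each gene (build GRCm38.p6). They cover chr12:85473640-85473889 on the + strand for Fos, chr7:19310046-19310295 on the - strand for Fosb, chr4:95052223-95052472 on the - strand for Jun and chr8:84978749-84978998 on the - strand for Junb. Capitals mark the CRE core (TGACG, read on both strands), the JUN TRE-like site (TGACATCA, both strands) and the TATA box (TATAAA, both strands).
Fos: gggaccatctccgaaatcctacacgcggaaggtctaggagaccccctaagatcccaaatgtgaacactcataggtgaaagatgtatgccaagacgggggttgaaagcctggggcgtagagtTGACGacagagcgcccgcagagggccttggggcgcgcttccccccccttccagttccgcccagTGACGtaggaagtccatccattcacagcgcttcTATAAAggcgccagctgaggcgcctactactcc
Fosb: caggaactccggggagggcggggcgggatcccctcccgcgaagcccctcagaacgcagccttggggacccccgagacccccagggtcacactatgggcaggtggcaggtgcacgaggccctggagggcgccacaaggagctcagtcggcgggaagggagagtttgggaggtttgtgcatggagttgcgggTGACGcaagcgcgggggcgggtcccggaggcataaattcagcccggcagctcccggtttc
Jun: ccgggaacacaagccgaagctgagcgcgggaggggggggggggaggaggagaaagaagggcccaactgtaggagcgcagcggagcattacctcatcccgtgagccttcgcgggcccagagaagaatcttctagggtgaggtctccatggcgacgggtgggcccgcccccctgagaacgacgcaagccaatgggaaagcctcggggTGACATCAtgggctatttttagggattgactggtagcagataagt
Junb: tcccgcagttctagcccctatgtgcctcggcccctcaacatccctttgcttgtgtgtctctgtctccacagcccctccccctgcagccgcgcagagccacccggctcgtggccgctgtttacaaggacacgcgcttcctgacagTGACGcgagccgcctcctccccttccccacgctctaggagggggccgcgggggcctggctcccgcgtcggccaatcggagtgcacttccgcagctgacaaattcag
The CRE core, part of the site that CREB and ATF factors bind, lay in the windows of 4 of the 8 members with a RefSeq promoter (Fos, Fosb, Junb and Atf3) and in 17.7% of 32817 promoter windows of the same length. TGACATCA, the variant AP-1 site of the Jun promoter, was found in 1 of the 8 members, Jun, and in 2.93% of all windows. Only Fos held a TATA box, against 12.4% of all windows. The full CRE (TGACGTCA), the TRE that is the classical AP-1 site (TGACTCA) and the CArG box of the serum response element had no match in these windows of the 8 members. They matched in 1.55%, 4.46% and 1.47% of all windows, and the CRE core is contained in the full CRE. Such matches describe letters in a window and not bound sites. Bases further upstream were not searched, so the lack of a match does not mean that a gene lacks the site. The window of Jund lies upstream of its GENCODE gene and those of Fosl2, Batf3 and Atf3 lie inside theirs, so these 4 windows are not next to the annotated first base, and Fosl1 had no entry.

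Levels between genes were compared as CPM (counts scaled to a common library total by TMM factors) per kilobase of annotated exon. Junb, which encodes a JUN protein that pairs with BATF in activated T cells and Tregs, was the most abundant member, with a mean of 1989.7 CPM per kb over the 6 libraries. Jund, the JUN member that resting cells also express, followed at 758 CPM per kb. The ranges of Junb and Jund did not overlap over the 6 libraries, nor did those of Jund and Jun. Jun, at 370.0 CPM per kb, and Fos, at 352 CPM per kb, could not be separated. Atf3, a stress-induced repressor that also pairs with JUN proteins, was at 43.0 CPM per kb, Fosl2 at 36.7 CPM per kb and Fosb at 24.0 CPM per kb, with ranges that overlapped each other and lay below those of the members above them. Fosl1 (0.234 CPM per kb) and Batf3 (0.167 CPM per kb) were close to the limit of detection.
Within the FOS family, Fos held 77.8%, 83.7% and 87.1% of the summed level per kb in the WT libraries and 86.0%, 86.8% and 87.6% in the cKO libraries. Within the JUN family, Junb held 65.5%, 66.6% and 63.9% of the sum in the WT libraries and 60.5%, 60.5% and 64.1% in the cKO libraries, and the groups overlapped for both shares. The share of Jun did not overlap, with 9.47%, 10.6% and 11.6% in the WT and 14.7%, 12.4% and 12.9% in the cKO libraries, while the other shares did. It was singled out after its values were seen, has no background over all genes, and rests on the same counts as the ratio of Jun to Junb below. The summed JUN level was far above the summed FOS level, and FOS over JUN was 0.112, 0.119 and 0.147 in the WT libraries and 0.138 to 0.144 in the cKO libraries. The cKO values lay inside the WT range.

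The total count was 19032620 to 21707706 in the WT libraries and from 20762042 to 23159815 in the cKO libraries. WT replicate 2 stood apart. It listed 11513 genes with counts, against 14442 to 14737 in the others, and 31.4% of the genes at 2 to 5 CPM elsewhere were at 0 in it. The members' comparisons are therefore given with and without this library, and values per library are listed in the order of replicates 1, 2 and 3. The targeted gene, Xrcc6, was at 20.9, 63.1 and 23.8 CPM in the WT libraries and at 3.51 to 5.24 CPM in the cKO libraries. Treg and T cell markers summed to 4537 to 6391 CPM (WT) and 4911 to 5506 CPM (cKO), with 8 of 9 listed markers in the table, among them Foxp3 at 150.4 to 282 CPM, Cd4 and Ctla4.

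No difference between the cKO and WT groups was detected for any of the 9 members. With edgeR's quasi-likelihood test over all 6 libraries, 0 of 9 had an adjusted p under 0.05, as had 0% of the 15315 genes tested. The targeted gene Xrcc6 was thus not called either (log2 fold change -3.06, unadjusted p = 0.000306, adjusted p = 0.984, edgeR). It was called without WT replicate 2 (log2 fold change -2.38, adjusted p = 0.0196, edgeR). At an unadjusted p under 0.05 there were also 0 of 9 members, against 1.81% of all genes. Without WT replicate 2, 0 of 9 members passed either threshold, against 0.00654% of all genes at the adjusted and 3.01% at the unadjusted p. DESeq2 also gave 0 members, where it called 0.0131% of genes at the adjusted and 2.01% at the unadjusted p over 6 libraries, and 0.0196% and 2.42% without WT replicate 2. Limma's voomWithQualityWeights gave 0 members in both comparisons, where it called 0% and 0.00654% of genes at the adjusted and 3.55% and 3.18% at the unadjusted p. A two-sided exact permutation test of log2(CPM + 0.5) gave p-values of 0.3 to 1 for the single members, and of 0.2 to 0.9 without WT replicate 2, in designs that cannot go below 0.1. The cKO and WT libraries overlapped for all 9 members, where 5.01% of all genes had every cKO library above and 3.23% every cKO library below the WT libraries. With scaling factors estimated again they also overlapped for all 9 without WT replicate 2, where these shares were 8.36% and 7.94%. The median log2 fold change of the members was -0.17, beside 0.04 over all genes tested, with 7 members lower and 2 higher in cKO. Without WT replicate 2 the median was 0.13, beside -0.01 over all genes, with 7 higher and 2 lower. The sign turned for 5 of the 9 members (Fos, Fosl1, Junb, Jund and Atf3), and for 31.6% of all genes.

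**Figure D1:**
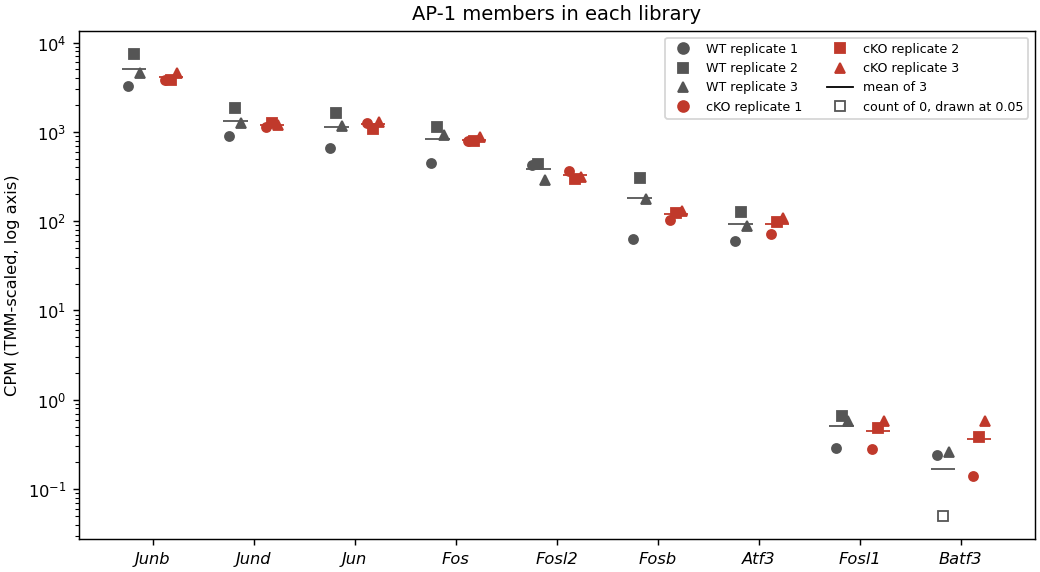
CPM of each member (log axis) in the 3 WT (grey) and 3 cKO (red) libraries, with a marker shape for each replicate number and a line at the mean of each group. The WT points spread widely around the tight cKO points for Fos, Fosb, Jun, Junb and Jund, while Fosl1 and Batf3 stay under 1 CPM, and the open square is a count of 0.

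Fos, on chromosome 12 of GRCm38 from 85473890 to 85477273, encodes the prototype FOS protein, which is made in a short burst after stimulation. It was at 449, 1129.7 and 933 CPM in the WT libraries and at 791, 784 and 883 CPM in the cKO libraries. All cKO libraries fell between the lowest and the middle WT library. Means were 837 ± 350.3 CPM for WT and 820 ± 55.4 CPM for cKO (SD, n = 3), and the log2 fold change was -0.03 (95% interval -0.80 to 0.74, edgeR). It was 0.25 (-0.40 to 0.89) without WT replicate 2.
Fosb, on chromosome 7 from 19302696 to 19310051, encodes a FOS relative whose protein outlasts FOS in the cell. It was at 63.8, 300.5 and 178 CPM in the WT libraries and at 104, 123 and 131 CPM in the cKO libraries. Its values differed most among the WT libraries, where replicate 2 was 4.71-fold and replicate 3 was 2.79-fold above replicate 1. The log2 fold change was -0.60 (95% interval -1.71 to 0.51, unadjusted p = 0.246 by edgeR), and -0.02 without WT replicate 2. WT replicate 1 set the size of the difference as well, since without that library the log2 fold change was -1.003 (edgeR, unadjusted p = 0.00585, adjusted p = 0.677). Over the 14 alternatives the adjusted p from edgeR, DESeq2 and limma did not fall below 0.677.
Fosl2, on chromosome 5 from 32135801 to 32157842, encodes the FOS relative FRA2, which lacks the strong activation domain of FOS. It was at 428, 433 and 290.2 CPM in the WT libraries and at 369, 299 and 310.0 CPM in the cKO libraries. WT replicates 1 and 2 were the highest and WT replicate 3 was the lowest, an order that no other member shared. The log2 fold change was -0.24 (95% interval -0.71 to 0.24, edgeR), and -0.14 (-0.59 to 0.30) without WT replicate 2. Its interval over 6 libraries was the narrowest of the members.
Fosl1, on chromosome 19 from 5447547 to 5455946, encodes the FOS relative FRA1. It had 6, 14 and 11 counts in the WT libraries and 6, 10 and 13 counts in the cKO libraries, after rounding of estimates that were not whole numbers in 5 of the 6 libraries. The counts of the groups overlapped. The log2 fold change was -0.18 (95% interval -2.06 to 1.70, edgeR), and 0.06 (-1.54 to 1.66) without WT replicate 2. Ccdc85b overlaps the gene in antisense, and the sources used here do not give the use of strand in counting.

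Jun, on chromosome 4 from 95049034 to 95052222, is a single-exon gene for the JUN protein that pairs with FOS. It was at 660.0, 1624 and 1154 CPM in the WT libraries and at 1270.0, 1089.5 and 1281 CPM in the cKO libraries. WT replicate 1 lay below and WT replicate 2 above all cKO libraries. Means were 1146 ± 482 CPM and 1213 ± 107 CPM in the WT and cKO groups (SD, n = 3). The log2 fold change was 0.08 (95% interval -0.68 to 0.84, edgeR), -0.00 when libraries were scaled by their totals only, and 0.42 (-0.15 to 0.99) without WT replicate 2.
Junb, on chromosome 8 from 84974484 to 84978718, was at 3296, 7389 and 4574 CPM in the WT libraries and at 3774, 3847 and 4590.3 CPM in the cKO libraries. The highest value was 1 WT library, and the cKO libraries lay near the other WT libraries. Its log2 fold change was -0.32 (95% interval -1.14 to 0.50, edgeR), and 0.05 (-0.49 to 0.59) without WT replicate 2. A decrease to 0.454 of the WT level or an increase to 1.41 of it thus lay inside the interval from all 6 libraries.
Jund, also on chromosome 8, from 70698949 to 70700616, was at 911, 1838 and 1266 CPM in the WT libraries and at 1125, 1254 and 1193 CPM in the cKO libraries. Its cKO libraries were the most alike of all members, with an SD of 0.08 on the log2 scale. The log2 fold change was -0.17 (95% interval -0.82 to 0.48, edgeR), and 0.13 (-0.33 to 0.59) without WT replicate 2. Jun, Junb and Jund overlap Junos, Prdx2 and Gm11175, each on the other strand.

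Atf3, on chromosome 1 from 191170296 to 191218039, was at 60.6, 128 and 89.3 CPM in the WT libraries and at 70.9, 97.8 and 109 CPM in the cKO libraries. Both groups had a mean of 92.6 CPM, with an SD of 33.8 for WT and 19.7 for cKO, and the log2 fold change was -0.00 (95% interval -0.67 to 0.67, edgeR). It was 0.31 (-0.21 to 0.82) without WT replicate 2. Atf3 had the widest relative spread among the cKO libraries of the members above 1 CPM, with the highest 1.54-fold above the lowest. Macrophage and monocyte markers (8 of 8 with counts) summed to 187, 671 and 688 CPM (WT) and 229, 534 and 1023 CPM (cKO), and their part in the Atf3 values was not tested.
Batf3, on chromosome 1 from 191097847 to 191108945, is best known as the factor required for the dendritic cells that cross-present antigen, and is also expressed in T cells. It had 5, 0 and 5 counts in the WT libraries and 3, 8 and 13 counts in the cKO libraries. A count of 0 in WT replicate 2 allows up to 3 counts, or 0.141 CPM, a limit that covers counting error only. Its log2 fold change was 1.122, and 0.55 without WT replicate 2. The 95% interval over 6 libraries, -1.77 to 4.02 (edgeR), held both a 0.293-fold and a 16.2-fold level, and without WT replicate 2 it ran from -1.36 to 2.46, so a difference within these bounds was not detectable at this depth. Dendritic cell markers (8 of 8 with counts) summed to 78.7, 132 and 125 CPM in the WT libraries and to 69.0, 195 and 221 CPM in the cKO libraries. H2-Aa, an MHC class II gene that other cells also express, made up most of the sum, with 194 CPM in cKO replicate 3. Of the 8 markers 5 were higher and 3 lower in cKO, with a median log2 fold change of 0.36 (5 and 3, median 0.18, without WT replicate 2). Itgax, named after its values were seen, was the 1 marker of the 8 above the WT libraries in every cKO library, where 5.01% of all genes were. It was at no more than 2.21 CPM and had 0 counts in WT replicate 2 (log2 fold change 1.73, unadjusted p = 0.211 from edgeR). Of the markers that define the cross-presenting cells, Clec9a was at 0 in 3 of the 6 libraries and at most at 0.0961 CPM. Xcr1 was at 0.846 to 13.1 CPM, with a log2 fold change of -0.21. It was -0.74 without WT replicate 2 (edgeR, unadjusted p = 0.0382, adjusted p = 0.997), where 3.01% of all genes had an unadjusted p under 0.05. Zbtb46, another abundant marker of the list, had a log2 fold change of 0.01, and of -0.38 without WT replicate 2. Clec9a and Xcr1 were picked from the list for their role in these cells, and the part of the dendritic markers in the Batf3 counts was not tested.

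**Figure D2:**
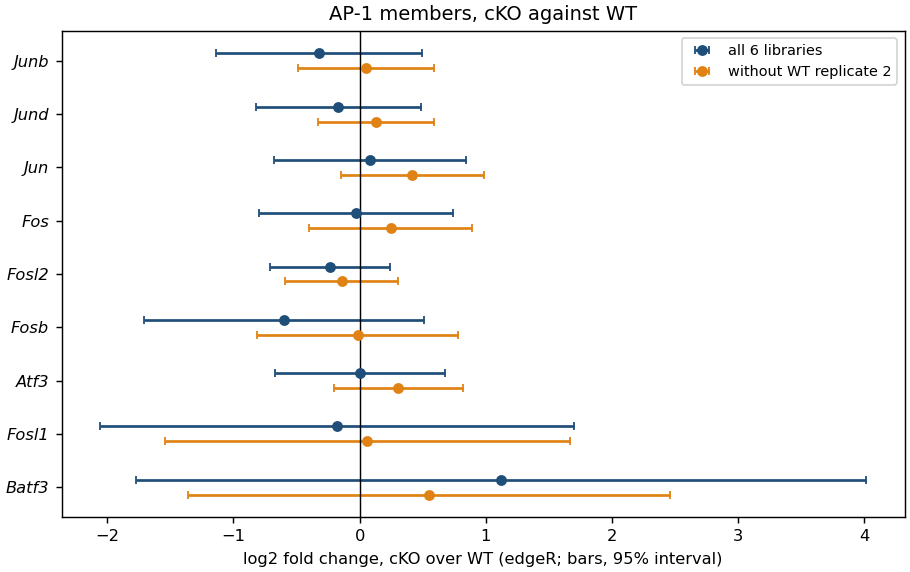
Log2 fold change of cKO over WT for each member from edgeR, with 95% intervals, over all 6 libraries (blue) and without WT replicate 2 (orange). All 18 intervals include 0, and the orange points lie to the right of the blue ones for every member but Batf3.

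Most members shared an order among the WT libraries. In 7 of 9 members, which were Fos, Fosb, Fosl1, Jun, Junb, Jund and Atf3, WT replicate 2 was the highest, replicate 3 was intermediate and replicate 1 was the lowest, an order found for 19.7% of the genes with counts in the WT group. WT replicate 2 was the highest WT library in 8 of 9 members, against 33.2% of the same genes. Both shares include genes with no counts in WT replicate 2, where that library cannot be the highest. The shares among genes at the members' level were not computed. In 7 of 9 members every cKO library lay between the lowest and the highest WT library, which held for 36.4% of all genes and for 40.4% of those with a mean of at least 10 CPM, and Fosl1 and Batf3 were the exceptions. The spread within the WT group was above the median of all genes for 6 of the 7 members above 10 CPM, Fosl2 being the exception. The SD of log2(CPM + 0.5) in the WT group was 1.13 for Fosb, 0.70 for Fos, 0.66 for Jun, 0.59 for Junb, 0.54 for Atf3, 0.51 for Jund and 0.33 for Fosl2, where the median over the 8447 genes with a mean of at least 10 CPM was 0.34. In the cKO group it was 0.17, 0.10, 0.13, 0.16, 0.32, 0.08 and 0.16 for the same genes, beside a median of 0.14.
The remaining WT libraries also differed from each other. WT replicate 3 was above replicate 1 by 2.08-fold for Fos, 2.79-fold for Fosb, 1.75-fold for Jun, 1.39-fold for Junb, 1.39-fold for Jund and 1.47-fold for Atf3, and Fosl2 was lower, at 0.678 of replicate 1, while the median fold between these libraries, in either direction, was 1.17 over the same 8447 genes. Macrophage and monocyte markers were also lowest in WT replicate 1, with 187 CPM, and their part in this order was not tested.

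**Figure D3:**
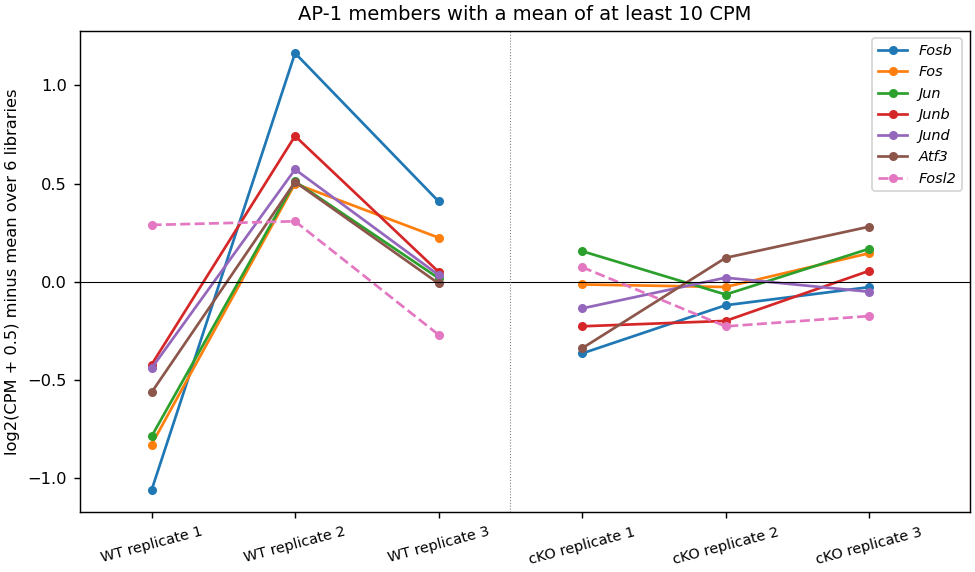
Log2(CPM + 0.5) of the 7 members with a mean of at least 10 CPM in each library, as the difference from the member's mean over the 6 libraries. Lines join the values of 1 member within a group and imply no order of replicates. Fos, Fosb, Jun, Junb, Jund and Atf3 are lowest in WT replicate 1 and highest in WT replicate 2, Fosl2 (dashed) is not, and the cKO values lie closer together than the WT values for each member, with Atf3 the widest.

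Ratios of members within a library do not depend on how libraries are scaled. Of the 21 ratios among the 7 members above 10 CPM, 1 did not overlap between the groups, or 4.76%, where 7.8% of all pairs of genes at that level, with counts in every library, did not overlap (15.3% without WT replicate 2). It was Jun over Junb, with 0.200, 0.220 and 0.252 in the WT libraries and 0.337, 0.283 and 0.279 in the cKO libraries. Every cKO library was above every WT library, also without WT replicate 2, and the difference was 0.42 on the log2 scale. As the share of such ratios was below that of all gene pairs, the count was not above the background, and the ratio was singled out after its values were seen. Seen from Jun, 9.2% of other genes at that level had a ratio to Jun that was lower in every cKO library, as Junb did, and 0.0238% had one that was higher. Fos over Jun, the classical AP-1 pair, was at 0.681, 0.695 and 0.809 in the WT libraries and at 0.623, 0.720 and 0.690 in the cKO libraries, so the groups overlapped. Fos over Fosb was at 7.04, 3.76 and 5.25 in the WT libraries and at 7.63, 6.37 and 6.73 in the cKO libraries, and the cKO range overlapped WT replicate 1.

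**Figure D4:**
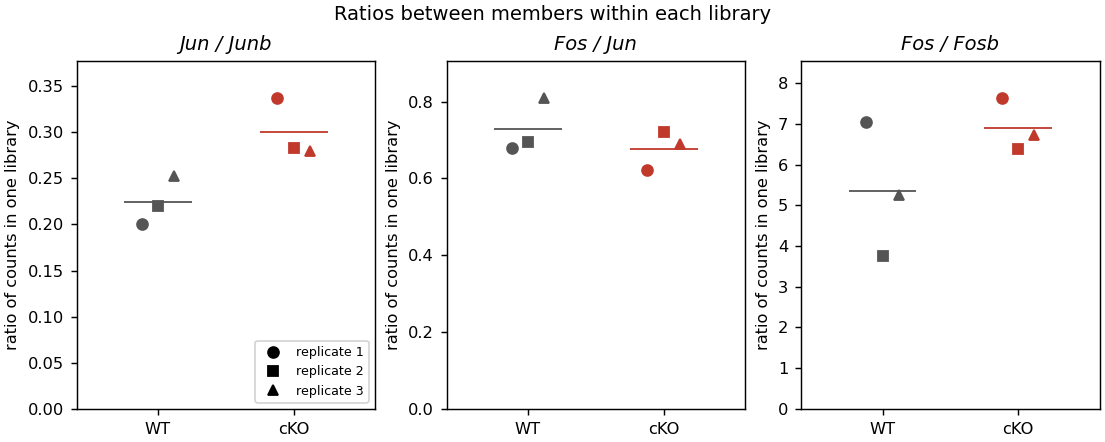
Ratio of the CPM of Jun to Junb, Fos to Jun and Fos to Fosb within each WT (grey) and cKO (red) library, with marker shapes for the replicate numbers and lines at the group means. The groups are separate only for Jun to Junb, with 0.200 to 0.252 in the WT group and 0.279 to 0.337 in the cKO group.

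The genes around AP-1 were described by lists. Among 37 other bZIP genes, which share the DNA-binding fold, 17 had higher and 20 had lower values in cKO, the median log2 fold change was -0.02 (21 and 16, with a median of 0.06, without WT replicate 2) and there were 0 genes at an unadjusted p under 0.05 from edgeR. Crem, Atf4 and Nfil3 were the most abundant, at log2 fold changes of -0.00, -0.20 and -0.28. Every cKO library was above the WT libraries for 2 of the 37 (5.01% of all genes) and below for 0 (3.23%). The 2 were Atf1 and Bach1, named after their values were seen, and Bach1 had 0 counts in WT replicate 2. Batf, the partner of JUNB in tissue Tregs, was at 177, 76.3 and 104 CPM in the WT libraries and at 126, 138 and 123 CPM in the cKO libraries. Its WT order was the reverse of that of Junb, with replicate 1 highest and replicate 2 lowest. Without WT replicate 2, Mafk, a small MAF protein that represses MAF sites, was the 1 gene of the list past that threshold (log2 fold change 0.38, unadjusted p = 0.0317 from edgeR), against 3.01% of all genes, and was named after its values were seen.
Of 34 kinases and factors upstream of the FOS and JUN promoters, 33 were in the table, 14 higher and 19 lower, with a median of -0.09 (16 and 17, median -0.02, without WT replicate 2) and 0 at an unadjusted p under 0.05 (edgeR). Mef2d and Rps6ka1, both among the most abundant, had log2 fold changes of 0.04 and 0.46. The groups did not overlap for Mapk14, with every cKO library above, and for Mapk9, with every cKO library below. That was 1 of 33 genes in each direction, where 5.01% of all genes were above and 3.23% below. Mapk14, which encodes the stress kinase p38 alpha, was at 85.4 to 97.0 CPM in the WT and 99.2 to 109.5 CPM in the cKO libraries. Mapk9, which encodes the JUN kinase JNK2, was at 43.2 to 46.6 CPM and 39.2 to 42.7 CPM. Mapk14 and Mapk9 were named after their values were seen. Of 9 partners at composite sites, 3 were higher and 6 lower, with a median of -0.06 (4 and 5, median -0.02, without WT replicate 2) and 0 past that p. Ets1, Nfatc1 and Foxp3, the most abundant, had log2 fold changes of -0.02, -0.06 and 0.25. Irf4, which binds together with BATF and JUN proteins, was at 80.1, 95.8 and 102 CPM in the WT libraries and at 89.1, 85.2 and 60.4 CPM in the cKO libraries.
Of 25 genes with known AP-1 sites, 13 were higher and 12 lower, with a median of 0.01 (10 and 15, median -0.17, without WT replicate 2) and 0 at an unadjusted p under 0.05 (edgeR). The cKO libraries were all below the WT libraries for 3 of the 25, Ctla4, Gadd45b and Il4, against 3.23% of all genes. Their log2 fold changes were -0.27, -0.41 and -1.18, with unadjusted p-values of 0.225, 0.0554 and 0.138 from edgeR. Without WT replicate 2 the groups overlapped for Ctla4 and stayed apart for Gadd45b and Il4, where 7.94% of all genes had every cKO library below. Gadd45b and Il4 were named after their values were seen. Ctla4, a checkpoint receptor of Tregs, was at 1247 to 1395 CPM in the WT and at 875 to 1236 CPM in the cKO group. Vim and Cd69, the other most abundant genes of the list, had log2 fold changes of 0.29 and 0.01. Without WT replicate 2, Il4 had a log2 fold change of -1.27 (unadjusted p = 0.0386 from edgeR) and Plaur, also named after the fact, of 0.88 (unadjusted p = 0.0318 from edgeR).

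Other immediate-early and dissociation-responsive genes were described in the same way. Of 32 listed genes 31 were in the table, 14 with higher and 17 with lower values in cKO (median log2 fold change -0.05), and without WT replicate 2 there were 22 higher and 9 lower with a median of 0.09. WT replicate 2 was the highest WT library in 22 of the 31 genes, and 17 had the order of WT libraries seen in the members. The shares given above, 33.2% and 19.7%, include genes with no counts in WT replicate 2, so they are not matched to this list either. Hspa8, Btg1 and Dusp1 were the most abundant, at log2 fold changes of 0.12, -0.18 and -0.00. Egr3, a zinc finger factor downstream of NFAT, was the 1 gene of the list with an unadjusted p under 0.05 from edgeR, where 0.868% of all genes were so called in the lower direction. It was at 8.84, 19.9 and 9.80 CPM in the WT libraries and at 7.47, 6.05 and 5.20 CPM in the cKO libraries, with a log2 fold change of -1.04 (unadjusted p = 0.0415 from edgeR, not past adjustment) and of -0.58 without WT replicate 2 (unadjusted p = 0.0306). Every cKO library was below the WT libraries for 2 of the 31 genes (3.23% of all genes) and above for 0 (5.01%). The 2 were Egr3 and Gadd45b, which is also the Gadd45b of the list of genes with known AP-1 sites and was named after its values were seen.

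By likeness of profile, measured as the mean absolute difference of centred log2(CPM + 0.5) over the 6 libraries among genes with a mean of at least 10 CPM, the closest gene to Fos was Smc4 (0.057), to Fosb Prg4 (0.11), to Fosl1 Hbp1 (0.056) and to Fosl2 Med7 (0.031). The closest to Jun was Pik3ip1 (0.067), to Junb Mef2a (0.044), to Jund Clk1 (0.032), to Atf3 Gimap6 (0.050) and to Batf3 Rpl3 (0.068). Fosl1 and Batf3 had means of 0.476 and 0.267 CPM, below the added 0.5. Their profiles are compressed and rest on few counts, so their closest genes say little. No member was the closest gene of another member. Mef2a is in the list of upstream factors.

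Markers of other cells were also present. Lyz2, a macrophage and monocyte marker, was above Foxp3 in WT replicates 2 and 3 (474 and 500.4 CPM) and in cKO replicates 2 and 3 (323 and 625 CPM). The median log2 fold change of the 8 macrophage and monocyte markers was 0.81, with 7 higher in cKO and 0 at an unadjusted p under 0.05 from edgeR. Of 6 neutrophil markers all had counts, and their sums were 9.99 to 20.5 CPM in the WT and 14.7 to 18.3 CPM in the cKO group. Of these markers 4 were higher and 2 lower in cKO, with the most abundant, Cxcr2, at a log2 fold change of -0.58. Retnlg and S100a9 were higher in every cKO library, at no more than 1.91 CPM, where 5.01% of all genes had every cKO library above. B cell markers (4 of 4) summed to 14.7 to 23.7 CPM and 12.02 to 47.5 CPM, CD8 T and NK cell markers (4 of 5) to 5.22 to 21.5 CPM and 19.5 to 21.1 CPM, lung epithelium and tumor markers (5 of 5) to 34.7 to 99.0 CPM and 36.5 to 67.9 CPM, and endothelial and stromal markers (7 of 7) to 61.6 to 82.4 CPM and 70.9 to 96.8 CPM in the WT and cKO groups. In sorted cells, RNA from more cells of another type and more RNA per cell cannot be told apart.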

How the data were processed

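RNA was extracted from tumor-infiltrating Tregs, and paired-end reads were aligned to GRCm38. The authors deposited estimated counts (expected counts) per gene symbol, with no normalization. The submitters' processing notes name Bowtie2 (version 2.3.4.3) and RSEM (version 1.3.1), and the annotation and use of strand were not given in the sources used here. Of the deposited values 21.6% were not whole and were rounded. CPM was scaled by TMM, and edgeR (version 4.0.16) in R (version 4.3.3) was run over the 15315 genes with at least 1 count, by its quasi-likelihood test with Benjamini-Hochberg adjustment, with all 6 libraries and without WT replicate 2. Total counts were 19032620 to 23159815 per library, so counting error was small for every member but Fosl1 and Batf3. Alternatives used DESeq2 (version 1.42.0), limma (version 3.58.1), other scalings, filters and dispersions, the replicate number as a block, and each library left out. Intervals of fold changes used the standard error from the F statistic and a t quantile. Positions and exon lengths were taken from GENCODE vM21, which is on the same build, and promoters from RefSeq.

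In simulated data, where 200 genes were given a log2 change of 2, edgeR found 147 of them among 15260 genes for the 6-library comparison and 197 among 15259 genes without WT replicate 2, with 9 and 20 false calls. DESeq2 found 178 and 198, with 106 and 40 false calls. The changed genes were drawn from well-counted genes, which leaves out Fosl1 and Batf3, and the missing genes of WT replicate 2 were not simulated. A log2 change of 2 was also larger than the log2 fold change of any member, so these counts do not give the power for the members.

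The members and lists were chosen with earlier results of these data known. Every member is described. From each other list the 3 most abundant genes are named, with up to 5 genes past an unadjusted p of 0.05 in the edgeR fit of 6 libraries, and Xrcc6, Foxp3, Batf and Irf4. The 3 genes most like a member in profile were found, and the first is printed for each. One item that the rule names is not reported here. Genes outside this rule are marked as named after their values were seen, except Clec9a, which was picked for its role in dendritic cells. No 2 libraries of a group agreed within sampling noise, so all 6 were kept.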

Additional observations from a re-analysis of the deposited data

How the results depend on the processing

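Across 14 alternatives per member (13 for Batf3, which the filterByExpr filter removed), no member passed an adjusted p of 0.05, 102 member values kept their direction and 23 turned, all with an unadjusted p of at least 0.208. Without WT replicate 2, Fos was at 0.25, Fosl1 at 0.060, Junb at 0.049, Jund at 0.13 and Atf3 at 0.31. DESeq2 without that library gave 0.24, 0.056, 0.045, 0.13 and 0.30 for the same genes. Limma's voomWithQualityWeights, which weights libraries, gave 0.19 for Fos, 0.051 for Fosl1, 0.067 for Jund and 0.29 for Atf3. Fos was at 0.061 without WT replicate 3. Without cKO replicate 1, Fosl1 was at 0.065 and Atf3 at 0.16. Jun was at -0.20 without WT replicate 1 and at -0.0035 with library totals only. Atf3, at -7.28e-05 as reported, was at 0.0082 with DESeq2 and with median-of-ratios scaling. With the replicate number as a block, Fos was at 0.067 and Atf3 at 0.043, and 0 members were called. Deviations of same-numbered libraries from their group means correlated at 0.12, -0.07 and 0.23 across genes for numbers 1, 2 and 3. Over all combinations of a WT and a cKO library these correlations ranged from -0.27 to 0.23, with 0.14 for WT replicate 1 and cKO replicate 2. Deviations from a mean of 3 libraries are not independent, and WT replicate 2 stood apart, so these values cannot show whether same-numbered libraries were paired. With 1 library left out at a time, log2 fold changes ranged from -0.33 to 0.25 for Fos, -0.46 to 0.065 for Fosl1, -0.20 to 0.42 for Jun, -0.56 to 0.049 for Junb, -0.38 to 0.13 for Jund and -0.23 to 0.31 for Atf3. The cause of these turns was not tested.

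Leaving out 1 library at a time, the number of members at an unadjusted p under 0.05 ranged from 0 to 1, with Fosb called without WT replicate 1, where 5.71% of all genes were. In the comparison that already lacked WT replicate 2 it ranged from 0 to 4, in settings chosen after seeing the data. The 4 were Fos, Fosb, Jun and Atf3, higher against WT replicate 1 alone, which is assumed to vary like the other libraries, where 8.2% of all genes were called. Fosb was lower against WT replicate 3 alone (4.68% of all genes called), and Atf3 was higher without cKO replicate 1 (4.61%). The number of members whose groups did not overlap ranged from 0 to 3, with Fos, Fosb and Jund below without WT replicate 1 (11.6% of all genes), Fosl2 below without WT replicate 3 (8.53%) and Batf3 above without cKO replicate 1 (11.3%). Fosl1 and Batf3 had at most 14 counts in a library.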
